A study of Mus musculus with 24 samples.

Results

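CD8 T cells from marrow of mice given ruxolitinib together with cyclosporine were compared with CD8 T cells from mice given cyclosporine alone, to show what ruxolitinib adds to cyclosporine. The comparison holds 6 of the 24 libraries of the series, chosen by their labels: CSA pools 4, 5 and 6 and RUX+CSA pools 10, 11 and 12. All animals were female CByB6F1 hybrid mice aged 2 to 5 months with immune bone marrow failure (BMF), used to study aplastic anaemia, where T cells destroy blood-forming cells. CSA stands for cyclosporine and RUX for low dose ruxolitinib. The other CD8 groups were untreated BMF mice (pools 1 to 3) and BMF mice given RUX alone (pools 7 to 9), and 12 further libraries held CD4 T cells of the same 4 treatments. Cells were isolated from marrow by flow cytometry and a library pools 2 or 3 mice of its group, so values describe pools and not single animals. Every group carries the disease, and no library of healthy mice was analysed here. The sources used here do not say how the marrow failure was set up, what untreated mice received in place of drug, or whether a sorted T cell came from donor or host.

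Cyclosporine inhibits calcineurin, the phosphatase that the T cell receptor uses to send NFAT transcription factors into the nucleus, where they switch on cytokine and activation genes. Ruxolitinib inhibits JAK1 and JAK2, kinases bound to cytokine receptors. When a cytokine such as interferon-gamma, interleukin-2 or interleukin-15 binds, JAK kinases phosphorylate STAT factors, which enter the nucleus and act on genes with TTCNNNGAA sites. Interferon-gamma drives guanylate-binding proteins and antigen presentation, while interleukin-2 and interleukin-15 work largely through STAT5 and drive CD8 T cell growth, survival and cytotoxic function. SOCS proteins and Cish are made in response and act as brakes. In immune marrow failure, CD8 T cells and interferon-gamma are known contributors to the loss of blood-forming cells.

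The 6 libraries held 22.4 M to 34.6 M (mega) read pairs assigned to genes, with 14578 to 15038 genes detected in each. Levels are given as counts per mega read pairs (CPM) after TMM scaling, as mean ± SD over 3 pools where a mean is given. Values are listed below in pool order, 4, 5 and 6 under CSA and 10, 11 and 12 under RUX+CSA. Cd8a, which encodes part of the coreceptor that defines these cells, was 1046, 1118 and 1080 CPM under CSA and 1033, 1012 and 1019 CPM under RUX+CSA. Cd4 lay between 0.414 and 0.993 CPM in these libraries, so the sort label matched its defining markers. Some single-drug libraries lay apart from the others of their label. On the second principal component, with 24.9% of the variance, CSA 6 lay at -26.9 against 10.5 and 20.8 for CSA 4 and CSA 5, and RUX 7 lay at 28.4 against -19.8 and -20.6 for RUX 8 and RUX 9. CSA 6 correlated best with RUX 9 (Pearson's r across genes 0.990) and RUX 7 with CSA 5 (0.981). Untreated pools 1, 2 and 3 were spread on this component too, at 1.84, 22.6 and -18.9, and untreated 3 correlated best with RUX 9 (0.989). Klrc1, which encodes the inhibitory receptor NKG2A, was 1109, 1326 and 345 CPM under CSA, and 1220, 358 and 364 CPM in RUX 7, 8 and 9. The main results are therefore given with all 12 CD8 libraries and again with CSA 6 and RUX 7 left out. For named genes whose value this moved by over 1.5 times, a value without both, or without CSA 6, is given too. The RUX+CSA libraries kept together, with r from 0.987 to 0.990 among them.

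**Figure D1:**
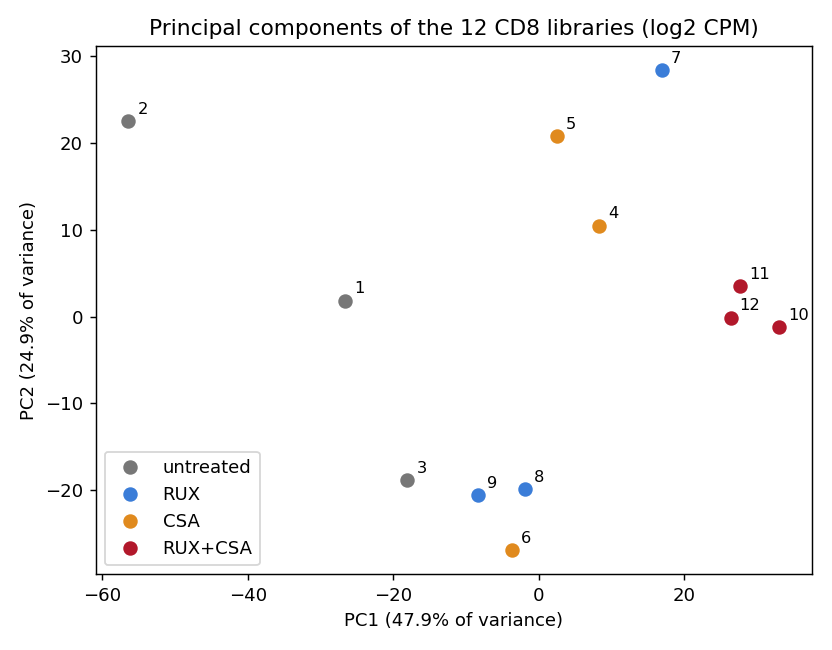
Principal components of log2 CPM in the 12 CD8 libraries, each point a pool with its pool number and coloured by treatment. Pools 10 to 12 lie at the right on the first component (26.4 to 33.1), while pool 6 (CSA) and pool 7 (RUX) lie away from the other pools of their groups on the second. The untreated pools 1 to 3 are spread on the second component as well (-18.9 to 22.6).

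In the edgeR quasi-likelihood test over the 12 CD8 libraries, 10 of 12684 genes passed an adjusted p of 0.05, which is 0.0788% of genes tested. Of these, 4 were higher and 6 lower in RUX+CSA. The genes that rose were the chemokine receptor Cxcr5, the orphan receptor Gpr25, the transcriptional repressor Zhx2 and the actin-severing protein Gsn (gelsolin). Those that fell were the chemokine Ccl1, the receptor Cd7, the calcium channel Ryr1, the prothrombinase-like immune regulator Fgl2, the cap-binding protein Eif4e3 and the gene model Gm19705. For each of the 10 genes, all 3 RUX+CSA libraries lay on one side of all 3 CSA libraries. An unadjusted p under 0.05 was found for 1593 genes, 654 higher and 939 lower. With CSA 6 and RUX 7 left out, 110 of 12799 genes passed (0.859%), 57 higher and 53 lower, and all 10 genes were among them. The count fell to 0 when any of CSA 4, CSA 5, RUX+CSA 10, RUX+CSA 11 or RUX+CSA 12 was left out, to 5 without CSA 6, to 6 without untreated 1 and to 4 without untreated 3, and it was 45 without RUX 7. DESeq2 called 266 genes and limma voom 8. The 10 calls thus rest on small groups, and the levels below show how far apart the libraries lay.

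Promoter sequences were read for the called genes, since JAK kinases act through STAT factors and calcineurin through NFAT factors. A RefSeq promoter (GRCm38.p6, 250 bases before to 50 after a gene's start) matched 6 of the 10 genes, and 9640 of the 12684 genes tested. The promoters of Ccl1, at chr11:82179763-82180062 on the minus strand, and Fgl2, at chr5:21372423-21372722 on the plus strand, are shown because Ccl1 had the largest fitted decrease of the 10 genes and Fgl2 was the only called gene whose promoter held the STAT letters. Capitals mark TTCNNNGAA (the STAT letters) and GGAAA or its complement TTTCC (the NFAT core).
Ccl1: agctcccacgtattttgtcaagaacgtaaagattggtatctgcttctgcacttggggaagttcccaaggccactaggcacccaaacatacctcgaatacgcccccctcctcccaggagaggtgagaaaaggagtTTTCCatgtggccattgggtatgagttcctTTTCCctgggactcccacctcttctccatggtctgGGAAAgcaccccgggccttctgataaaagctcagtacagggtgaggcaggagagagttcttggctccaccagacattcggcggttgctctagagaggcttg
Fgl2: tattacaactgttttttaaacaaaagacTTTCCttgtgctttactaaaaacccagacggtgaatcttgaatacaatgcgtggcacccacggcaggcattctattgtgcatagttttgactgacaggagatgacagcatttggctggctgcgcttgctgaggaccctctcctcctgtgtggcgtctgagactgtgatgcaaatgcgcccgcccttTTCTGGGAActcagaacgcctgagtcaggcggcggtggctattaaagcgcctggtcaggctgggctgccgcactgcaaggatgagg
The Ccl1 window held 3 NFAT cores and no STAT letters, and the Fgl2 window held 1 of each, which do not overlap. Over all genes tested with a promoter, 8.5% held TTCNNNGAA on either strand and 63.8% held the NFAT core, which at 5 letters occurs often in windows of 300 bases. Among the called genes, the STAT letters were found in 1 of 4 genes with a promoter that were lower and 0 of 2 that were higher, and the NFAT core in 3 of 4 and 1 of 2. With CSA 6 and RUX 7 left out, the STAT letters were found in 7.14% of 42 lower and 0 of 45 higher genes, and the NFAT core in 76.2% and 51.1%. These shares are descriptions and were not tested.

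Cxcr5 (chromosome 9, 44511787 to 44526421, minus strand) encodes the receptor for CXCL13 found on B cells and follicular T cells, and also marks stem-like memory CD8 T cells. Its level was 13.3, 11.8 and 19.2 CPM under CSA and 38.3, 43.3 and 41.0 CPM under RUX+CSA. The groups did not overlap, and the gap between them was wider than the range within either. The log2 fold change was 1.47 (SE 0.19, edgeR adjusted p = 0.0364), and 1.71 without CSA 6 and RUX 7 (adjusted p = 0.000462). Untreated libraries held 9.95 to 12.8 CPM and RUX libraries 14.7 to 22.4 CPM, all below RUX+CSA. B cell RNA was also higher in RUX+CSA: Ms4a1, the B cell marker CD20, was 13.1, 4.74 and 0.853 CPM in RUX+CSA 10, 11 and 12. Cxcr5 was 41.0 CPM in RUX+CSA 12, which had the lowest Ms4a1 of the group, and the part of B cells in the Cxcr5 value was not tested.

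Gpr25 (chromosome 1, 136258914 to 136260873, minus strand), a receptor of lymphocytes, was 0.429, 0.455 and 0.764 CPM under CSA and 3.75, 3.91 and 5.29 CPM under RUX+CSA. It was the largest increase among the called genes, from a low level (log2 2.96, SE 0.46, adjusted p = 0.04996; 3.29 without CSA 6 and RUX 7). In RUX libraries it was 1.10, 0.670 and 0.784 CPM, and in untreated libraries 0.0794 to 0.512 CPM. A count of 3 corresponds to 0.0882 to 0.138 CPM in the 6 libraries, so the CSA values of Gpr25 stand above that floor.

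Zhx2 (chromosome 15, 57694667 to 57839832, plus strand) was 14.6, 15.0 and 13.8 CPM under CSA and 23.9, 22.9 and 25.9 CPM under RUX+CSA (log2 0.75, SE 0.10, adjusted p = 0.0364). Every RUX+CSA pool was above every pool of the other 3 groups. Gsn (chromosome 2, 35256359 to 35307902, plus strand) was 50.8, 44.9 and 55.3 CPM under CSA and 79.7, 80.4 and 75.6 CPM under RUX+CSA (log2 0.64, SE 0.093, adjusted p = 0.0388). Both genes were lowest in the untreated group, at 12.0 to 12.8 CPM for Zhx2 and 35.1 to 38.9 CPM for Gsn. Gelsolin is also made by myeloid cells, and neutrophil markers were higher in RUX+CSA, as given below; the part of such cells in the Gsn value was not tested.

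Ccl1 (chromosome 11, 82176666 to 82179812, minus strand) encodes a chemokine of activated T cells that attracts cells through CCR8. It was 1.82, 2.28 and 2.58 CPM under CSA and 0.199, 0.322 and 0.235 CPM under RUX+CSA, with a log2 fold change of -3.14 (SE 0.44, adjusted p = 0.0386) and -3.01 without CSA 6 and RUX 7. Untreated libraries held 1.26 to 1.59 CPM. Among RUX libraries, RUX 8 and RUX 9 held 2.06 and 1.84 CPM and RUX 7 held 0.672 CPM. No library of the other 3 groups was as low as any RUX+CSA library.

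Cd7 (chromosome 11, 121036749 to 121039478, minus strand), an immunoglobulin-family receptor of T and NK cells, was abundant. Its level was 463, 413 and 687 CPM under CSA and 165, 180 and 181 CPM under RUX+CSA (log2 -1.57, SE 0.24, adjusted p = 0.04996). Without CSA 6 and RUX 7 the value was -1.31 with an adjusted p of 0.000462. Untreated libraries reached 545 to 707 CPM and RUX libraries 287 to 540 CPM, so the RUX+CSA pools were the lowest of the 12.

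Fgl2 (chromosome 5, 21372673 to 21378386, plus strand), which can act on clotting at the cell surface and is secreted by T cells as a suppressor of immune responses, was 328, 377 and 208 CPM under CSA and 129, 115 and 129 CPM under RUX+CSA. Its log2 fold change was -1.29 (SE 0.20, adjusted p = 0.04996). CSA 6 was the lowest of its group, and without CSA 6 and RUX 7 the value was -1.49 (adjusted p = 0.00233). RUX libraries held 203 to 227 CPM.

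Ryr1 (chromosome 7, 29003340 to 29125151, minus strand), a calcium release channel best known from skeletal muscle and present in lymphocytes, was 17.3, 13.0 and 15.3 CPM under CSA and 5.30, 5.53 and 5.91 CPM under RUX+CSA (log2 -1.45, SE 0.18, adjusted p = 0.0364). Untreated and RUX libraries lay between 13.0 and 22.4 CPM, so every RUX+CSA pool was below every other CD8 pool. Eif4e3 (chromosome 6, 99625137 to 99666771, minus strand), a relative of the cap-binding factor of translation, was 55.4, 59.7 and 54.1 CPM under CSA and 34.5, 36.2 and 39.1 CPM under RUX+CSA (log2 -0.62, SE 0.098, adjusted p = 0.04996). Gm19705 (chromosome 1, 136683396 to 136690805, plus strand), a gene model whose function is not given in the files, fell from 3.50, 4.67 and 3.44 CPM to 1.06, 1.11 and 1.50 CPM (log2 -1.65, SE 0.24, adjusted p = 0.0388). Counting did not use strand, so reads from an overlapping antisense transcript would be included in any of these values.

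**Figure D2:**
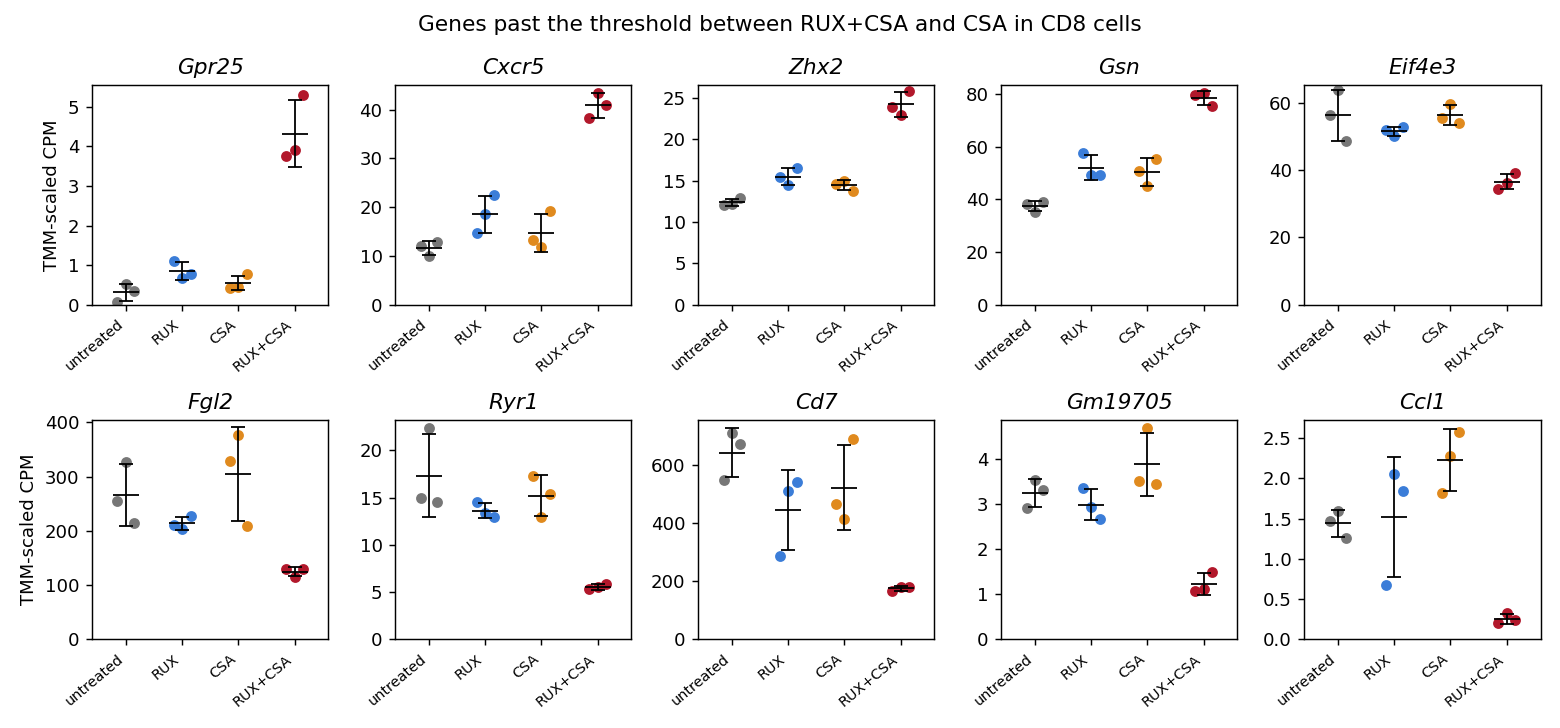
TMM-scaled CPM of the 10 genes past the threshold in the 12 CD8 libraries; points are pools, and bars the mean ± SD of 3 pools. In each panel the 3 RUX+CSA points do not overlap the 3 CSA points, as for Cxcr5, with 38.3 to 43.3 against 11.8 to 19.2 CPM.

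The genes next in line missed the threshold in the 12-library fit. They were picked by smallest p among genes whose groups did not overlap, so their lack of overlap is no result. Of all genes tested, 10.4% were non-overlapping upward and 11.5% downward. Btla, an inhibitory receptor of T cells, was 69.3, 69.0 and 52.5 CPM under CSA and 100.4, 105 and 95.3 CPM under RUX+CSA (log2 0.66, SE 0.11, adjusted p = 0.0605). Slamf6, a receptor that marks stem-like CD8 T cells, was 123, 115 and 136 CPM under CSA and 191, 208 and 184 CPM under RUX+CSA (log2 0.64, SE 0.11, adjusted p = 0.0605). Other genes of this kind with higher values were Cldnd1 (log2 0.54), the deglycosylating enzyme Ngly1 (0.42), Tmem154 (0.63), Thap3 (0.57) and the actin-severing factor Dstn (0.67). Lower values were found for the centriole protein Sclt1 (log2 -0.69, adjusted p = 0.0528), the calcineurin regulator Rcan3 (-0.50), Lztfl1 (-0.88) and the histone methyltransferase Ash1l (-0.82). The activating and inhibitory SLAM-family receptor Cd244, known as 2B4, was 90.4, 66.6 and 78.6 CPM under CSA and 25.1, 21.6 and 26.3 CPM under RUX+CSA (log2 -1.69, SE 0.29, adjusted p = 0.0811). Without CSA 6 and RUX 7, Btla (adjusted p = 0.0217), Slamf6 (0.00508), Cldnd1, Ngly1, Thap3, Dstn, Sclt1, Rcan3 (0.0329) and Ash1l passed, while Cd244 (0.0832), Tmem154 and Lztfl1 did not.

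Gene lists for the pathways of both drugs and for T cell states are described by counts of members, beside the background of all genes. Over the 12684 genes, 10.4% had all 3 RUX+CSA libraries above all 3 CSA libraries, 11.5% had them all below, and the median log2 fold change was -0.019. Of these genes, 6815 had log2 values below 0 and 5869 above 0. Outside Cxcr5, no member of any functional list passed the threshold in the 12-library fit, so members are given by their values.

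Most receptors of the JAK pathway had log2 values below 0, but their mean level overlapped between the groups. The kinases and STAT factors of the pathway differed little. Among 23 tested cytokine receptors that signal through JAK kinases, none passed, and 16 had log2 values below 0. In this list 2 were non-overlapping upward and 6 downward (26.1%, against 11.5% of all genes), and the median was -0.11. Values ran from -0.65 to 1.12. The mean log2 level was 5.82, 5.78 and 5.70 under CSA and 5.73, 5.73 and 5.72 under RUX+CSA. These overlap (exact two-sided permutation test over 3 against 3 libraries, p = 0.4). Il12rb1, a chain of the interleukin-12 receptor, was 91.7, 109 and 116 CPM under CSA and 78.6, 80.8 and 87.3 CPM under RUX+CSA (log2 -0.36, SE 0.12, adjusted p = 0.247). Il2rb, the shared chain of the interleukin-2 and interleukin-15 receptors, had a log2 value of -0.29 (SE 0.16), or -0.10 without CSA 6 and RUX 7, and Il2ra, the high-affinity interleukin-2 receptor chain, -0.47 (SE 0.31). Of 11 JAK and STAT genes, none passed, and the median was -0.0097. Jak1, a target of ruxolitinib, was 1570, 1666 and 1241 CPM under CSA and 1801, 1910 and 2014 CPM under RUX+CSA (log2 0.35, SE 0.12, adjusted p = 0.246). Jak2 had a log2 value of 0.15 (SE 0.096) and Stat5a -0.039 (SE 0.082), both with overlapping groups; without CSA 6 and RUX 7 they were 0.096 and 0.020.

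Among 18 brakes on JAK signalling none passed. Of them, 3 were non-overlapping downward (16.7%, against 11.5% of all genes) and 1 upward (5.56%, against 10.4%). Cish, a STAT5 target that limits interleukin-2 and T cell receptor signals, was 79.4, 78.0 and 64.7 CPM under CSA and 32.4, 31.8 and 32.7 CPM under RUX+CSA. Its groups did not overlap, and the fitted log2 value was -1.20 (SE 0.37, adjusted p = 0.243). Untreated pools, which share the estimate of the spread, lay between 49.7 and 150 CPM and RUX pools between 38.6 and 84.8 CPM. Cish passed in the edgeR fit of the 6 libraries only (adjusted p = 0.00857) and in the DESeq2 Wald test, and its value was -0.26 with the covariate of other-cell markers given below. Socs1 was 43.0, 44.6 and 73.7 CPM under CSA and 27.7, 34.6 and 34.1 CPM under RUX+CSA (log2 -0.74, SE 0.33, adjusted p = 0.39; -0.44 without CSA 6 and RUX 7). Socs3 had a log2 value of -0.38 (SE 0.18).

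Targets of STAT5 leaned down without any passing. Of 32 members, 25 had log2 values below 0, 9 were non-overlapping downward (against 11.5% of all genes) and 2 upward, and the median was -0.25 (-0.29 without CSA 6 and RUX 7). Id2, a regulator of effector CD8 T cells, was 1116, 1291 and 1168 CPM under CSA and 705, 699 and 683 CPM under RUX+CSA (log2 -0.78, SE 0.16, adjusted p = 0.111). Pim1, a survival kinase, had a log2 value of -0.52 (SE 0.22), and Mcl1, a survival factor of the BCL2 family, -0.17 (SE 0.073, adjusted p = 0.372). Bcl2 itself was -0.36 with an SE of 0.31. Among the 18 BCL2 family genes none passed, with 1 non-overlapping in each direction.

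Interferon-gamma response genes showed the most one-sided values of the signalling lists. Of 41 members tested, 38 had log2 values below 0, 22 were non-overlapping downward and none upward, and the median was -0.27 (-0.24 without CSA 6 and RUX 7). None passed in the 12-library fit. Tgtp1, an interferon-induced GTPase, was 36.7, 55.5 and 41.7 CPM under CSA and 21.8, 19.5 and 18.8 CPM under RUX+CSA (log2 -1.15, SE 0.30, adjusted p = 0.19), and it passed without CSA 6 and RUX 7 (adjusted p = 0.0121). The guanylate-binding protein gene Gbp6 was 108, 167 and 181 CPM under CSA and 67.3, 60.0 and 72.3 CPM under RUX+CSA (log2 -1.19, SE 0.46, adjusted p = 0.33). Gbp4 was the other member to pass without CSA 6 and RUX 7 (log2 -0.67, adjusted p = 0.0467). RUX 7 was low for many of these genes, for instance 44.8 CPM of Gbp6 against 174 and 223 CPM in RUX 8 and RUX 9. The components of antigen presentation moved less: Tap1 had a log2 value of -0.28, Tap2 -0.20 and Tapbp -0.20, with groups that did not overlap, and B2m -0.054; without CSA 6 and RUX 7, Tap1 was -0.14, Tap2 -0.11 and B2m -0.012. Irf1, an early interferon-induced transcription factor, had -0.16 (SE 0.15), and Ifng itself was 183, 202 and 202 CPM under CSA and 193, 176 and 180 CPM under RUX+CSA, which overlap (log2 -0.097, or -0.062 without CSA 6 and RUX 7).

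Type I interferon response genes had 10 of 50 members non-overlapping downward and 2 upward, with a median of -0.19, and none passed. Ifitm2, a member with higher values, was 7.79, 8.15 and 12.5 CPM under CSA and 20.3, 18.9 and 15.3 CPM under RUX+CSA (log2 0.93, SE 0.21, adjusted p = 0.122). It passed without CSA 6 and RUX 7 (log2 1.20, adjusted p = 0.0221), as did Mx1 (-0.90), Ly6a (-0.80), Slfn8 (-0.80) and Ifit1bl1 (-0.91), which were lower.

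**Figure D3:**
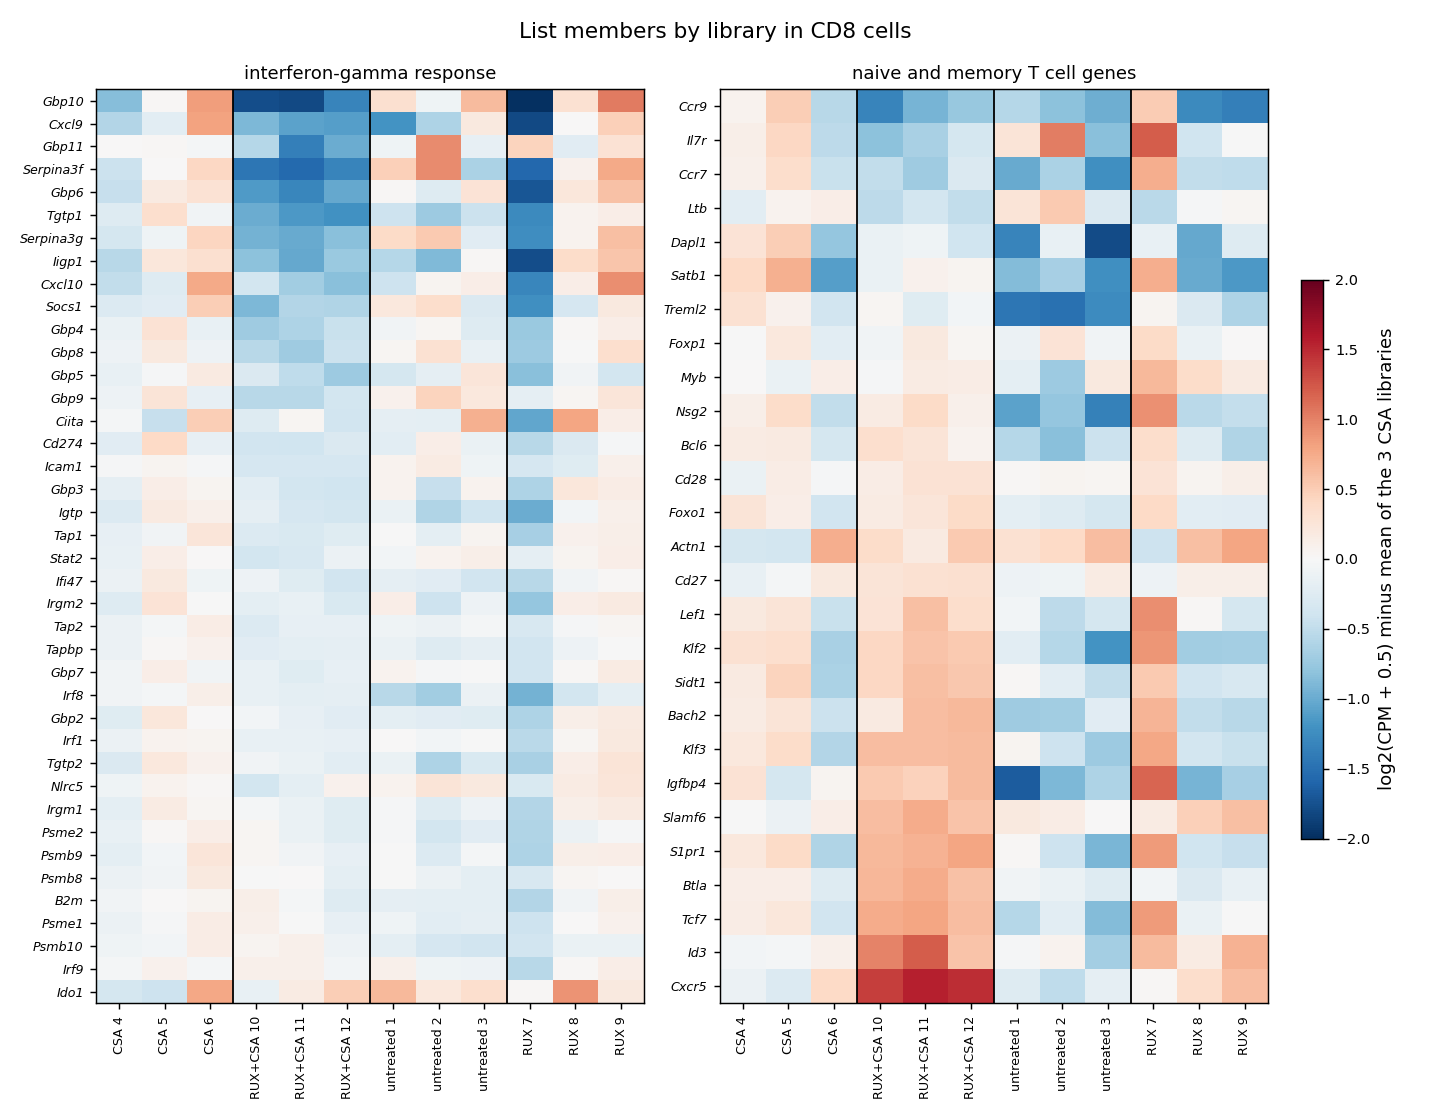
Heat map of log2(CPM + 0.5) minus the mean of the 3 CSA libraries for the tested members of the interferon-gamma response list (41) and of the naive and memory list (28), by library, with 1 member of each list not drawn; red is above and blue below the CSA mean, with colours limited at 2. The 3 RUX+CSA columns are blue for most interferon-gamma members (38 fitted values below 0) and red for most memory members (21 above 0); RUX 7 is blue throughout much of the first panel.

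Calcineurin, NFAT factors and their targets, the pathway that cyclosporine blocks in both groups, had 3 members non-overlapping upward and 6 downward of 36, and a median of -0.066. Rcan3 was 26.8, 23.8 and 23.1 CPM under CSA and 18.0, 16.9 and 17.1 CPM under RUX+CSA (adjusted p = 0.0745). Rcan1, the classical NFAT target among calcineurin regulators, overlapped between the groups (log2 -0.23, SE 0.30), and its sign turned to 0.12 without CSA 6 and RUX 7. Nr4a1 and Egr1, fast reporters of T cell receptor signal, had log2 values of 1.06 (SE 0.63) and 0.72 (SE 0.35). Nr4a1 was 127, 128 and 62.3 CPM under CSA and 215, 214 and 234 CPM under RUX+CSA, and its untreated values were 13.7 to 52.4 CPM. Immediate early and stress genes as a list had 15 of 44 members non-overlapping upward (10.4% of all genes were) and 2 downward, with a median of 0.15 and none past the threshold. Ier3, its member with the smallest p, was at a log2 value of 0.61 (SE 0.17, adjusted p = 0.192).

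T cell receptor signalling components had 7 of 35 members non-overlapping upward and 2 downward, with a median of 0.10. The phospholipase Plcg1 was 142, 160 and 159 CPM under CSA and 117, 119 and 121 CPM under RUX+CSA (log2 -0.37, SE 0.086, adjusted p = 0.137). Cd5, an inhibitory coreceptor, was at 0.40 (SE 0.13), and the kinase Fyn at 0.28, passing only without CSA 6 and RUX 7 (log2 0.38, adjusted p = 0.0473). NF-kappa-B genes had none upward and 6 of 27 downward without overlap, among them the subunits Relb (log2 -0.56, SE 0.12, adjusted p = 0.107) and Nfkb2 (-0.57, adjusted p = 0.122), and Nfkb2 passed without CSA 6 and RUX 7 (adjusted p = 0.0468).

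The killing machinery showed no member past the threshold. Of 17 granule genes, 2 were non-overlapping upward and 1 downward. Prf1, perforin, was the member with the smallest p, at 477, 515 and 841 CPM under CSA and 373, 391 and 432 CPM under RUX+CSA (log2 -0.62, SE 0.27, adjusted p = 0.378), and the value was -0.32 without CSA 6. Gzmb, granzyme B, was 1728, 1684 and 716 CPM under CSA and 1179, 1054 and 1067 CPM under RUX+CSA, so its groups overlapped through CSA 6 (log2 -0.32, SE 0.35; -0.63 without CSA 6). Gzmk was at 0.34 (SE 0.20). Of 19 death ligand and receptor genes, 4 were non-overlapping downward and 1 upward. Tnfsf10, the ligand TRAIL, was 70.9, 83.5 and 77.9 CPM under CSA and 42.7, 41.1 and 46.6 CPM under RUX+CSA (log2 -0.83, SE 0.23, adjusted p = 0.196). Fasl, the ligand of Fas and a known effector of marrow destruction, was at -0.30 (SE 0.16) with overlapping groups, and at -0.058 without CSA 6. T cell cytokines and chemokines had 4 of 23 members lower without overlap, among them Csf1 (log2 -1.40, SE 0.46) and Tnf (-0.53, SE 0.30).

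NK lineage receptors carried on CD8 T cells depended most on CSA 6. Their median over 23 members was 0.073 with all libraries and -0.38 without CSA 6 and RUX 7, and no member passed in the 12-library fit. Klrc1 was 1112, 1038 and 864 CPM under RUX+CSA, close to CSA 4 and CSA 5 and far above the 345 CPM of CSA 6, and its fitted sign turned from 0.12 to -0.27. Klrd1, its partner CD94, was 394, 444 and 170 CPM under CSA and 337, 337 and 236 CPM under RUX+CSA (log2 -0.15, SE 0.46; -0.46 without CSA 6 and RUX 7). Without CSA 6 and RUX 7, 4 members passed upward, among them Slamf6 and the signalling adaptors Tyrobp (log2 1.62) and Fcer1g (1.26), and 1 downward. Tyrobp and Fcer1g are also myeloid genes, and neutrophil markers were higher in the same libraries, as given below; the part of other cells in these values was not tested.

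Naive and memory genes leaned up. Of 28 members, 1 passed (Cxcr5, against 0.0788% of all genes), 11 were non-overlapping upward and 2 downward, and the median was 0.26 (0.20 without CSA 6 and RUX 7). Tcf7, encoding TCF-1 of stem-like and memory cells, was 197, 209 and 136 CPM under CSA and 297, 308 and 274 CPM under RUX+CSA (log2 0.70, SE 0.26, adjusted p = 0.308). Id3, a factor of memory precursors, was 11.0, 11.2 and 12.3 CPM under CSA and 23.3, 27.3 and 17.4 CPM under RUX+CSA (log2 0.98, SE 0.22, adjusted p = 0.131). Il7r (log2 -0.65, SE 0.51) and Ccr7 (-0.54, SE 0.34) had values below 0, with overlapping groups. Among effector transcription factors, Eomes was at 0.39 (SE 0.13, adjusted p = 0.245) and Tbx21, T-bet, at -0.017 (SE 0.18), or -0.21 without CSA 6 and RUX 7.

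Inhibitory receptors and exhaustion genes had a median of -0.36, the lowest of the 30 functional lists with all libraries. Without CSA 6 and RUX 7 it was -0.19, and the lists of mitosis (-0.39), NK lineage receptors (-0.38), STAT5 targets (-0.29) and the interferon-gamma response (-0.24) had lower medians. Of 25 members, 10 were non-overlapping downward and 2 upward, and none passed. The lower ones included Cd244, Lilr4b (log2 -0.99), Lilrb4a (-0.94), Entpd1 (-0.70), Cd101 (-0.66) and Cd38 (-0.48), and without CSA 6 and RUX 7 Entpd1 was -0.45, Cd101 -0.41 and Cd38 -0.33. The 2 members that passed without CSA 6 and RUX 7 were both higher, Btla (log2 0.55) and the transcription factor Tox2 (1.15), and none was lower. Lag3 (log2 -0.50, SE 0.42) and Pdcd1, which encodes PD-1, overlapped between groups, and Lag3 was -0.075 without CSA 6. Pdcd1 was 649, 579 and 1362 CPM under CSA and 678, 680 and 801 CPM under RUX+CSA, and its fitted sign turned from -0.26 to 0.24 without CSA 6 and RUX 7. Costimulatory receptors had 2 of 19 members without overlap in each direction, with Slamf1 at a log2 value of -0.96 (SE 0.26, adjusted p = 0.196).

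Chemokine receptors, integrins and retention genes had 10 of 36 members non-overlapping upward and 2 downward, with Cxcr5 past the threshold and a median of 0.18 (0.056 without CSA 6 and RUX 7). Cd9 (log2 1.08), the oxysterol receptor Gpr183 (0.67) and the marrow exit receptor S1pr1 (0.65, or 0.42 without CSA 6 and RUX 7) were among the higher ones. Cxcr6, a receptor of tissue-resident effector cells, was 938, 1065 and 1437 CPM under CSA and 772, 828 and 830 CPM under RUX+CSA (log2 -0.50, SE 0.21, adjusted p = 0.37; -0.30 without CSA 6 and RUX 7). S100, annexin, galectin and lamin genes had 7 of 24 members upward and 1 downward, with Capg at a log2 value of 0.38 (SE 0.12, adjusted p = 0.245). The 7 were annexins, Capg and the nuclear lamin Lmna. All 18 neutrophil markers were higher in the RUX+CSA libraries, as given below; the part of such cells in this list was not tested.

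Cell division genes mostly had small log2 values below 0, while the mean level of both lists overlapped between the groups. Among 55 mitosis genes, 54 had log2 values below 0, where 6815 of all 12684 genes did. In this list 11 were non-overlapping downward and none upward, and the median was -0.30 (-0.39 without CSA 6 and RUX 7). The mean log2 level was 6.99, 6.71 and 6.51 under CSA and 6.55, 6.33 and 6.48 under RUX+CSA. These overlap (exact two-sided permutation test over 3 against 3 libraries, p = 0.2). Troap, a spindle protein, was the member with the smallest p (log2 -0.54, SE 0.18, adjusted p = 0.26). Mki67, the proliferation marker, was 448, 374 and 260 CPM under CSA and 290, 230 and 318 CPM under RUX+CSA, which overlap. Of 51 replication and S phase genes, 50 had values below 0, 9 were non-overlapping downward and none upward, and the median was -0.16. Their mean log2 level was 6.82, 6.58 and 6.81 under CSA and 6.67, 6.47 and 6.53 under RUX+CSA, which overlap (same permutation test, p = 0.2). No member of either list passed.

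Housekeeping lists had small medians: 0.026 for 76 nuclear-encoded respiratory chain subunits, 0.013 for 70 ribosomal proteins, 0.0011 for 47 proteasome and MHC class I genes, 0.032 for 32 chaperones and -0.018 for 37 glycolysis and hypoxia genes. Without CSA 6 and RUX 7 these were 0.10, 0.11, 0.055, 0.073 and 0.034, against 0.00086 for all genes. MYC and ribosome biogenesis genes had 10 of 46 members upward and 1 downward without overlap at a median of 0.077, and Myc itself was at -0.043 (SE 0.093), or 0.018 without CSA 6 and RUX 7. Of 35 sterol and fatty acid synthesis genes, 7 were upward and 3 downward, with a median of 0.077. No member of these lists passed.

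**Figure D4:**
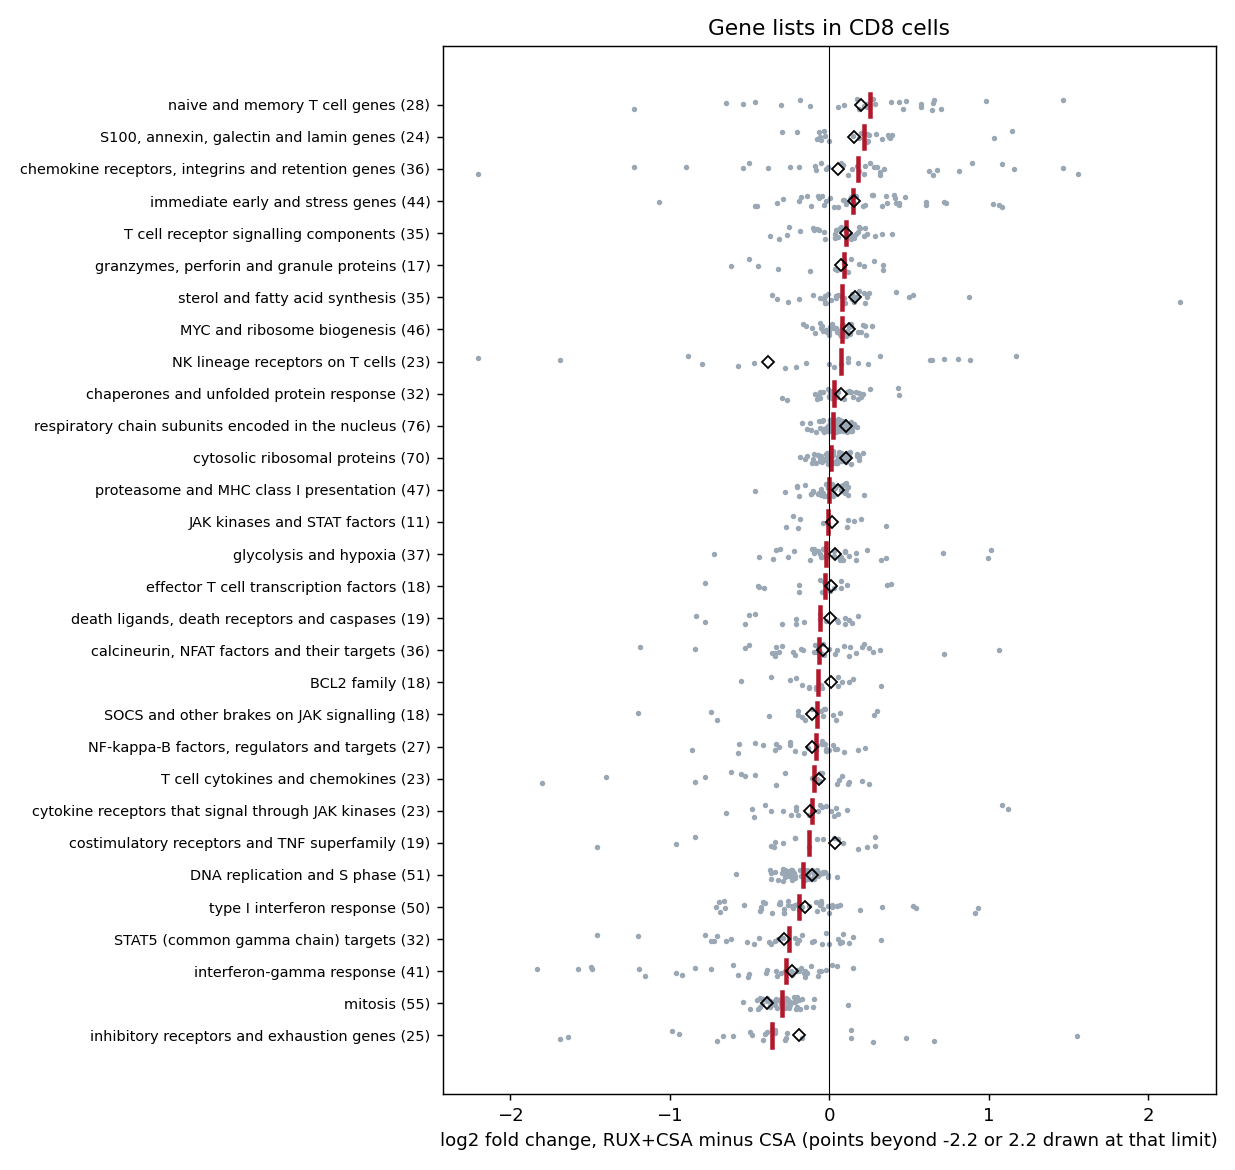
Fitted log2 fold changes, RUX+CSA minus CSA, of the tested members of the 30 functional lists (number tested in brackets); grey points are genes, red bars list medians with all 12 CD8 libraries and open diamonds medians without CSA 6 and RUX 7. Inhibitory receptors (-0.36), mitosis (-0.30) and interferon-gamma response (-0.27) have the lowest medians, and naive and memory genes (0.26) the highest. The diamond of the NK lineage receptors lies on the other side of 0 from its bar.

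RNA of other cell types differed between the groups. All 18 measured neutrophil markers were higher in every RUX+CSA library than in any CSA library, with a median log2 value of 1.37, and their summed level was 1972, 908 and 3508 CPM under CSA and 6059, 4538 and 4938 CPM under RUX+CSA. Untreated libraries held 539, 13.0 and 1527 CPM of them. The granule proteins S100a8 and S100a9 reached 986 and 948 CPM in RUX+CSA 10. B and plasma cell markers summed to 25.5, 24.8 and 12.0 CPM under CSA and 81.0, 54.9 and 32.2 CPM under RUX+CSA, with 6 of 11 members upward and 1 downward without overlap. Ms4a1 was 0.286 CPM in CSA 4, listed at 0 in CSA 5 and CSA 6, and at 13.1, 4.74 and 0.853 CPM in RUX+CSA. Basophil, mast cell and eosinophil markers summed to 34.2, 19.5 and 86.3 CPM under CSA and 156, 108 and 94.7 CPM under RUX+CSA, and 7 of 11 were upward. Stem and progenitor markers had 6 of 7 upward, with sums of 18.4 to 43.0 CPM in CSA and 64.8 to 67.2 CPM in RUX+CSA. These sums came mostly from Kit (24.2, 29.7 and 24.1 CPM under RUX+CSA) and Spi1 (21.9, 19.4 and 24.9 CPM). Kit and Gata2 are also members of the basophil list, so the 2 lists are not separate. Hlf overlapped between the groups, and Meis1, Mecom, Procr and Myct1 reached at most 0.322 CPM in the 6 libraries. For these 4 lists (neutrophil, B cell, basophil and progenitor) the exact two-sided permutation test over 3 against 3 libraries gave p = 0.1 for the mean log2 level, the smallest p this design allows. None of their members passed the edgeR threshold.

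Among the other lists, macrophage and monocyte markers summed to 1747, 1848 and 870 CPM under CSA and 2044, 1653 and 1407 CPM under RUX+CSA, with 4 of 21 members upward and 5 downward. The sums came mostly from Ly6c2, Ccr2 and Lyz2. Ly6c2 was 1033, 1193 and 179 CPM under CSA and 838, 652 and 454 CPM under RUX+CSA. Lyz2 was 246, 98.7 and 375 CPM under CSA and 740, 560 and 565 CPM under RUX+CSA. Macrophage genes went both ways. C1qb was 3.82, 2.11 and 7.70 CPM under CSA and 1.16, 1.66 and 1.82 CPM under RUX+CSA. Cd68, the member with the smallest p, was 23.2, 28.4 and 19.5 CPM under CSA and 42.2, 42.4 and 36.8 CPM under RUX+CSA. Its log2 value was 0.77 (edgeR adjusted p = 0.186), and it passed without CSA 6 and RUX 7 (0.66, adjusted p = 0.0468). Csf1r was 2.82, 1.99 and 3.41 CPM under CSA and 5.77, 4.05 and 4.59 CPM under RUX+CSA. CD4 T cell markers summed to 33.0, 44.1 and 104 CPM under CSA and 28.3, 31.6 and 33.9 CPM under RUX+CSA. Their mean log2 levels were lower under RUX+CSA and did not overlap (exact permutation p = 0.1). Most of the sum was Tnfrsf4, at 19.4, 26.8 and 82.4 CPM under CSA and 11.9, 17.9 and 17.2 CPM under RUX+CSA. Its log2 value was -1.45, or -0.55 without CSA 6 and RUX 7. Foxp3, Zbtb7b and Cd40lg overlapped between the groups. CD8 T cell markers were 8668, 8953 and 8919 CPM under CSA and 9670, 9439 and 8710 CPM under RUX+CSA. Erythroid markers overlapped (exact permutation p = 0.3), with sums of 103, 234 and 99.2 CPM under CSA and 167, 140 and 344 CPM under RUX+CSA. Of 10 members tested, 9 had log2 values above 0, and the median was 1.06. The globin genes Hba-a1, Hba-a2, Hbb-bs and Hbb-bt were listed at 0 in all 12 CD8 libraries. Slc4a1 reached 65.0 CPM in RUX+CSA 12, so the globin zeros do not show that erythroid RNA was absent. Summed levels of the dendritic cell, platelet, gamma-delta T cell and stromal lists overlapped between the groups. NK cell markers had 2 of 9 upward, and the NK-defining receptor Ncr1 lay between 0.0921 and 0.372 CPM in the 6 libraries.

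With the mean log2 level of the neutrophil, erythroid, B cell and basophil markers as a covariate, 0 of the genes passed (edgeR, smallest adjusted p 0.187, 961 genes at an unadjusted p under 0.05). Treatment group accounts for 81.5% of the variance of that covariate, so the drug groups and the other-cell RNA cannot be told apart in such a fit. In bulk RNA of pooled cells, more cells of a type and more RNA per cell of it cannot be told apart either. All 10 called genes kept their sign in the 18 alternatives tried, the covariate included, with a range of -1.70 to -1.31 for Cd7, -1.53 to -1.15 for Ryr1 and 1.26 to 1.71 for Cxcr5. With the covariate, Fgl2 moved from -1.29 to -0.85 and Eif4e3 from -0.62 to -0.39.

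**Figure D5:**
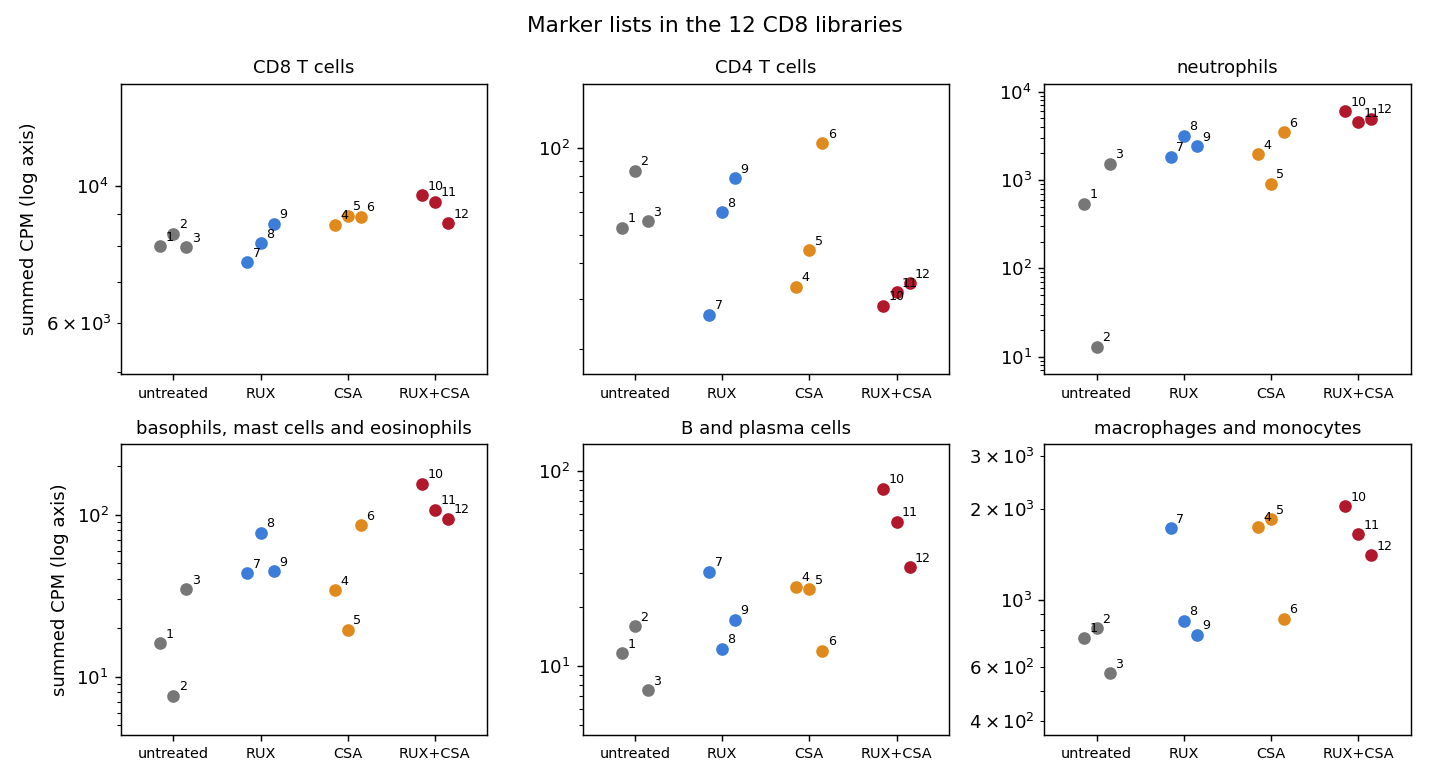
Summed CPM of 6 marker lists in the 12 CD8 libraries, on log axes, with pool numbers beside the points. Neutrophil sums are 4538 to 6059 CPM in RUX+CSA and 908 to 3508 CPM in CSA, while CD8 T cell sums lie between 7522 and 9670 CPM in all libraries.

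Whether ruxolitinib differed with and without cyclosporine was asked with the interaction term, (RUX+CSA minus CSA) minus (RUX minus untreated), in the same fit. No gene of 12684 passed (0%; smallest adjusted p 0.999), with 368 at an unadjusted p under 0.05. DESeq2 called 1 gene, Ccl1. The 3 genes with the smallest p were Ccl1, Tspan9 and Srpk3, with interaction values of -3.23, -3.88 and 4.38 on the log2 scale. Tspan9 lay between 0.0588 and 0.816 CPM and Srpk3 between 0 and 1.23 CPM in the 12 CD8 libraries. Their log2 values thus rest on few counts. Ccl1 and Tgtp1 passed with RUX 7 left out (adjusted p = 0.0317 each). Ccl1 was at 1.44 CPM on average in untreated and 1.52 CPM in RUX pools, against 2.23 CPM in CSA and 0.252 CPM in RUX+CSA. The test thus gave no call that the 10 differences depend on cyclosporine being present, and at 3 pools a group it does not show that they are alike without it.

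The same drug contrast in CD4 T cells, with libraries of its own, called 53 genes in the fit of all 24 libraries, 22 higher and 31 lower. Of the 10 genes called in the 12 CD8 libraries, Cxcr5 was among them, with a log2 value of 1.79 in CD4 (SE 0.26, edgeR adjusted p = 0.00673). In the fit of all 24 libraries, where CD8 cells had 19 calls, 5 genes were called in both cell types (26.3% of the CD8 and 9.43% of the CD4 calls): Cxcr5, Lztfl1 and the B lineage genes Spib, Fcmr and Ly6d. Of the other 9 genes, all had the same sign in CD4 and none passed there, from Fgl2 (-0.64, adjusted p = 0.0837) and Eif4e3 (-0.43, 0.0618) to Ccl1 (-0.56, 0.687) and Cd7 (-0.37, 0.597). The difference between CD8 and CD4 was tested directly, and 0 of 13476 genes passed (0%; smallest adjusted p 0.0714), with 893 at an unadjusted p under 0.05 and 14 calls by DESeq2. The values nearest the threshold were Dpysl2 (difference -0.85, adjusted p = 0.0714), Ccdc30 (6.56, 0.0714) and the chemokine Xcl1 (-3.0, 0.106). In all 3 the CD8 value was small (Dpysl2 0.064, Ccdc30 0.27, Xcl1 -0.33) and the CD4 value was not (0.92, -6.28 and 2.68). For Cd7 and Ccl1 the differences were -1.19 and -2.58 with adjusted p-values of 0.507 each.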

How the data were processed

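The authors deposited raw counts of read pairs per gene, made with featureCounts 2.0.3 on exons of the UCSC mm10 gene annotation without a strand option, per the file headers; reads were aligned with STAR, per the submitters' processing notes, in a version not given in the sources used here. Libraries used the SMART-Seq mRNA LP kit, per the labels. Groups came from the labels. From the counts, edgeR 4.0.16 (R 4.3.3) with TMM scaling, filterByExpr and a robust quasi-likelihood F test was fitted to the 12 CD8 libraries (8 residual degrees of freedom), and p-values were adjusted by Benjamini-Hochberg over all 12684 genes tested, at a threshold of 0.05. The difference from CD4 used all 24 libraries. The deposited counts covered 24421 genes, and the fit was tested on simulated data. Alternatives used DESeq2 1.42.0, limma 3.58.1, other filters and libraries left out; leaving out untreated pools was chosen after seeing the data. Genes were named from a rule: genes past the threshold, then those with the smallest p whose groups did not overlap and whose mean log2 CPM reached 3, up to 10 in each direction; the member of each list with the smallest p; list members as examples; a fixed set of pathway genes; and the 3 smallest p of each difference test. Ccl1, Gpr25 and Gm19705 fall outside the rule and were named because all 10 called genes are given. The members and lists were chosen with earlier results of these data known. P-values measure the spread between pools. A few genes chosen this way are not reported here.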

Additional observations from a re-analysis of the deposited data

How the results depend on the processing

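No paired analysis was possible because CSA pools 4 to 6 and RUX+CSA pools 10 to 12 share no replicate number. The count of 10 genes became 6 with DESeq2 size factors, 266 with the DESeq2 Wald test, 16 with the 6 libraries only, 19 with all 24 libraries, 110 without CSA 6 and RUX 7, 45 without RUX 7 and 0 with the covariate of other-cell markers; it ranged from 0 to 11 when a CSA, RUX+CSA or untreated library was left out. For the interaction, 0 became 1 with the DESeq2 Wald test and ranged from 0 to 2 with a library left out. For the CD8 against CD4 difference, 0 became 14 with the DESeq2 Wald test and 1 without CSA 6 and RUX 7, and ranged from 0 to 1. The cause of these shifts was not tested. Of 1653 log2 values of 92 named genes under alternatives, 1460 kept direction and side of the threshold, 67 newly passed, 97 no longer passed and 29 (14 genes) changed sign, none of them a called gene. With the covariate the sign changed for Cd34 (-0.57), Asns (-0.0038), Csf3r (-0.70), Gzmk (-0.18), Il2ra (0.36), Il7r (0.44), Bcl2 (0.49), Klrd1 (0.10) and Tbx21 (0.30). Without CSA 6 and RUX 7 it changed for Rcan1 (0.12), Pdcd1 (0.24), Stat5a (0.020), Myc (0.018) and Klrc1 (-0.27). Tbx21 was 0.0032 with DESeq2 size factors, 0.0032 with the DESeq2 Wald test and 0.017 with limma voom. With a library left out, ranges were -0.28 to 0.48 for Klrc1, -0.47 to 0.12 for Klrd1, -0.096 to 0.0076 for Myc, -0.47 to 0.23 for Pdcd1, -0.38 to 0.11 for Rcan1, -0.089 to 0.021 for Stat5a and -0.22 to 0.11 for Tbx21. Genes near the floor of 3 counts, such as Ccl1 under RUX+CSA, are limited by depth.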
